A study of Mus musculus with 10 samples.

Results

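The 6 genes described here encode the Nr4a nuclear receptors (*Nr4a1*, *Nr4a2* and *Nr4a3*) and the Egr zinc-finger factors (*Egr1*, *Egr2* and *Egr3*). They were taken by gene symbol, in a choice made with earlier results of these data known, and are 6 of the 48321 symbols counted. All 6 passed a filter on low counts that left 13796 genes for testing. RNA-seq was performed on untreated CD4+ T cells from the spleens of C57BL/6 mice that carried a GFP reporter of *Foxp3*, the lineage factor of regulatory T cells (Tregs). The sort used GFP, which stands for FoxP3 below, and CD25, the alpha chain of the IL-2 receptor, in 2 wild-type (WT) mice and in 2 mice of genotype *Satb1* F/F:*Thpok-cre* (KO). This gave 10 libraries in 5 groups of 2: WT FoxP3+CD25+ (Tregs), WT FoxP3-CD25- (non-Tregs), KO FoxP3+CD25+, KO FoxP3-CD25- and KO FoxP3+CD25- cells. In KO mice, Cre driven from the Thpok locus removes the floxed *Satb1* gene in developing T cells, once these have taken the CD4 fate and while FoxP3 is still off. Tregs and non-Tregs of these mice would thus carry the deletion alike. The labels do not say whether WT mice carried the floxed allele or Cre, and they give no age for a library. Numbers in the titles were read as mice, with each mouse giving 1 library per population, which the titles imply but do not state.

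Nr4a and Egr genes are immediate early genes: they need no new protein synthesis to be transcribed, and their RNA rises within minutes to hours of T-cell receptor engagement and is short-lived. Nr4a proteins are orphan nuclear receptors whose ligand pocket is closed, so their activity depends mainly on how much protein is made. In the thymus and periphery, stronger receptor signals give more Nr4a protein, and Nr4a factors act on *Foxp3* and are needed for Treg development. *Egr1* is activated through the MAP kinase pathway by serum response factor and its Elk partners. *Egr2* and *Egr3* raise negative regulators such as *Cblb*, and the Nab co-repressors bind Egr proteins and limit their activity.

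Start-site sequences of the members that carry the findings below are shown first, because 3 response elements have been tied to this kind of induction: the cyclic AMP response element (CRE, TGACGTCA, or its shorter form TGACG), the CArG box bound by serum response factor, and the Egr site (GCGTGGGCG or GCGGGGGCG). The NBRE, AAAGGTCA, is bound by Nr4a proteins and was searched as well. The RefSeq table of start-site windows (GRCm38.p6) held windows for 4 of the 6 genes, *Nr4a1*, *Nr4a2*, *Nr4a3* and *Egr2*. Each stretch reads 5' to 3' on the strand of the gene, ends at or before the start site or the exon that GENCODE places there, and shows motif matches in capitals, CGTCA being TGACG read on the opposite strand.
Nr4a1: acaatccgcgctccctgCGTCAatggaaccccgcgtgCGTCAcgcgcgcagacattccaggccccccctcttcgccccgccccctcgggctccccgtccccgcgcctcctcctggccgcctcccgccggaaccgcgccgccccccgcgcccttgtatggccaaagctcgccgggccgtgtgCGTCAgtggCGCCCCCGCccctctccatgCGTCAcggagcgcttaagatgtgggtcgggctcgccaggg
Nr4a2: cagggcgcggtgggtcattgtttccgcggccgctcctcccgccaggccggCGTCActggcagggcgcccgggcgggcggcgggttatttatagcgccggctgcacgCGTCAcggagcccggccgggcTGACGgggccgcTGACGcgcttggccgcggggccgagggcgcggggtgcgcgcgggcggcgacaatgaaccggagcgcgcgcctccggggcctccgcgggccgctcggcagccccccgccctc
Nr4a3: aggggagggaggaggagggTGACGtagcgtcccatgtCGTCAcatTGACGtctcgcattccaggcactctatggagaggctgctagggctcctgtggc
Egr2: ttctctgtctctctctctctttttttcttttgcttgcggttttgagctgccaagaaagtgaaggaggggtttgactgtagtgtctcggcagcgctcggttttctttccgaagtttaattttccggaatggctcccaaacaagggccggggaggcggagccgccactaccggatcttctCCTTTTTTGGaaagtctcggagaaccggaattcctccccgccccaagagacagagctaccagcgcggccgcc
These stretches were chr15:101266596-101266845 (plus strand), chr2:57124004-57124253 (minus strand), chr4:48045055-48045152 (plus strand) and chr10:67537316-67537565 (plus strand). In windows of 250 bases before to 50 bases after a start site, searched on both strands, *Nr4a1*, *Nr4a2* and *Nr4a3* each had 4 copies of TGACG, of which the stretch of *Nr4a3* shows 3. At least 1 copy was in 20.8% of the 32851 windows of the table, and 4 or more were in 0.231%. The full CRE, which would contain the shorter form, was in none of the windows of these 4 genes (1.79% of all windows), and neither was the NBRE (1.51%). *Nr4a1* had 1 Egr site, CGCCCCCGC when read on the gene's strand, 60 bases before its start site (3.47% of all windows had 1 or more). That start site, chr15:101266846, lies inside the GENCODE gene, which begins at 101254269. For *Egr2*, which has 5 windows with different start sites, the one shown had a CArG box 72 bases before the start site, at chr10:67537494-67537503. A second CArG box lay at chr10:67537797-67537806, 72 bases before the next start site, and a CArG box was in 1.63% of all windows. That next window also held 2 copies of TGACG. The most upstream *Egr2* window, with its start site at chr10:67535499, held none of the motifs searched, so the matches depend on the start site.

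Reads counted on genes ranged from 6094952 to 12410064 per library (median 7721649), and members had 28 to 4502 counts, so none was near the floor of 3 counts (0.242 to 0.492 CPM, which are counts divided by the TMM-scaled library size and given per 1000000). Floors cover counting error only. *Satb1* did not differ between genotypes past the threshold in either population (edgeR FDR 1 and 0.927): it had 379 and 478 CPM in WT FoxP3+CD25+ cells against 598 and 534 in KO, and 818 and 881 CPM in WT FoxP3-CD25- cells against 841 and 682 in KO, with 1190 and 993 CPM in KO FoxP3+CD25- cells. These counts cover the whole gene and do not resolve the deleted exons, so KO below means the libraries labelled KO. *Foxp3* was at 318 to 739 CPM in FoxP3+ and 18 to 38.9 CPM in FoxP3- libraries, and *Il2ra* was at 627 to 760 CPM in CD25+ and 1.55 to 16.8 CPM in CD25- libraries. All 10 T-cell markers had counts in every library. Both WT replicate 1 libraries held 14487 and 16362 counts of *Xist* and none on 4 Y-linked genes. At most 4 *Xist* counts stood in any of the remaining 8, with 3039 to 4750 counts on the Y-linked genes. WT mouse 1 thus reads as female and all other mice as male. Sex cannot be told apart from the mouse within WT, and it differs in part with genotype. Members and list counts of the WT comparison are therefore also given without WT mouse 1. The 7 markers of B cells summed to 402 to 655 CPM in FoxP3+CD25+ cells, 229 to 332 CPM in FoxP3-CD25- cells and 259 to 306 CPM in KO FoxP3+CD25- cells. *Ighm* made up most of this sum (215 to 578 CPM), while *Ms4a1* had no count in 8 libraries and at most 0.763 CPM. Mean *Cd74* was 43.8 CPM in WT and 34.5 CPM in KO FoxP3+CD25+ cells, against 2.07 and 4.85 CPM in FoxP3-CD25- cells. For *Cd79b* these means were 16.9 and 14.5 CPM against 1.12 and 4.14 CPM. The B-cell marker sum was higher in the populations where several members were higher, and its part in their differences was not tested. Marker sums of CD8 T cells (9.38 to 16.6 CPM) and myeloid cells (14 to 22.9 CPM) were low throughout. The 4 NK-cell markers summed to 12.4 to 25.9 CPM in FoxP3-CD25- cells and to 2.41 to 7.47 CPM in the FoxP3+ groups, mostly from Eomes, which activated T cells also express. Eomes was called lower in WT Tregs than in WT non-Tregs (log2 fold change -2.81, edgeR FDR 0.00489) and in KO FoxP3+CD25- than in KO FoxP3-CD25- cells (-2.66, edgeR FDR 0.0432), and the part of these cells in the differences below was not tested. Fewer cells of a type and less RNA per cell cannot be told apart in such bulk libraries.

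Per length, *Nr4a1* was the highest of the 6 genes and *Egr1* the next in all 5 groups. In WT Tregs, mean levels were 92.9 CPM per kb of exon for *Nr4a1*, 48.7 for *Egr1*, 20.6 for *Egr2*, 11.2 for *Nr4a2*, 10.9 for *Nr4a3* and 5.24 for *Egr3*. *Nr4a1* thus ranked at place 398 and *Egr1* at place 925 of 13346 genes with a length, while *Egr3* ranked at place 7569. In WT non-Tregs the order was *Nr4a1* (73.4 CPM per kb), *Egr1* (32.6), *Egr2* (7.57), *Nr4a3* (5.31), *Egr3* (3.80) and *Nr4a2* (3.08). All 6 transcripts were thus present in cells labelled as untreated. No other annotated gene overlaps any of the 6 genes.

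**Figure D1:**
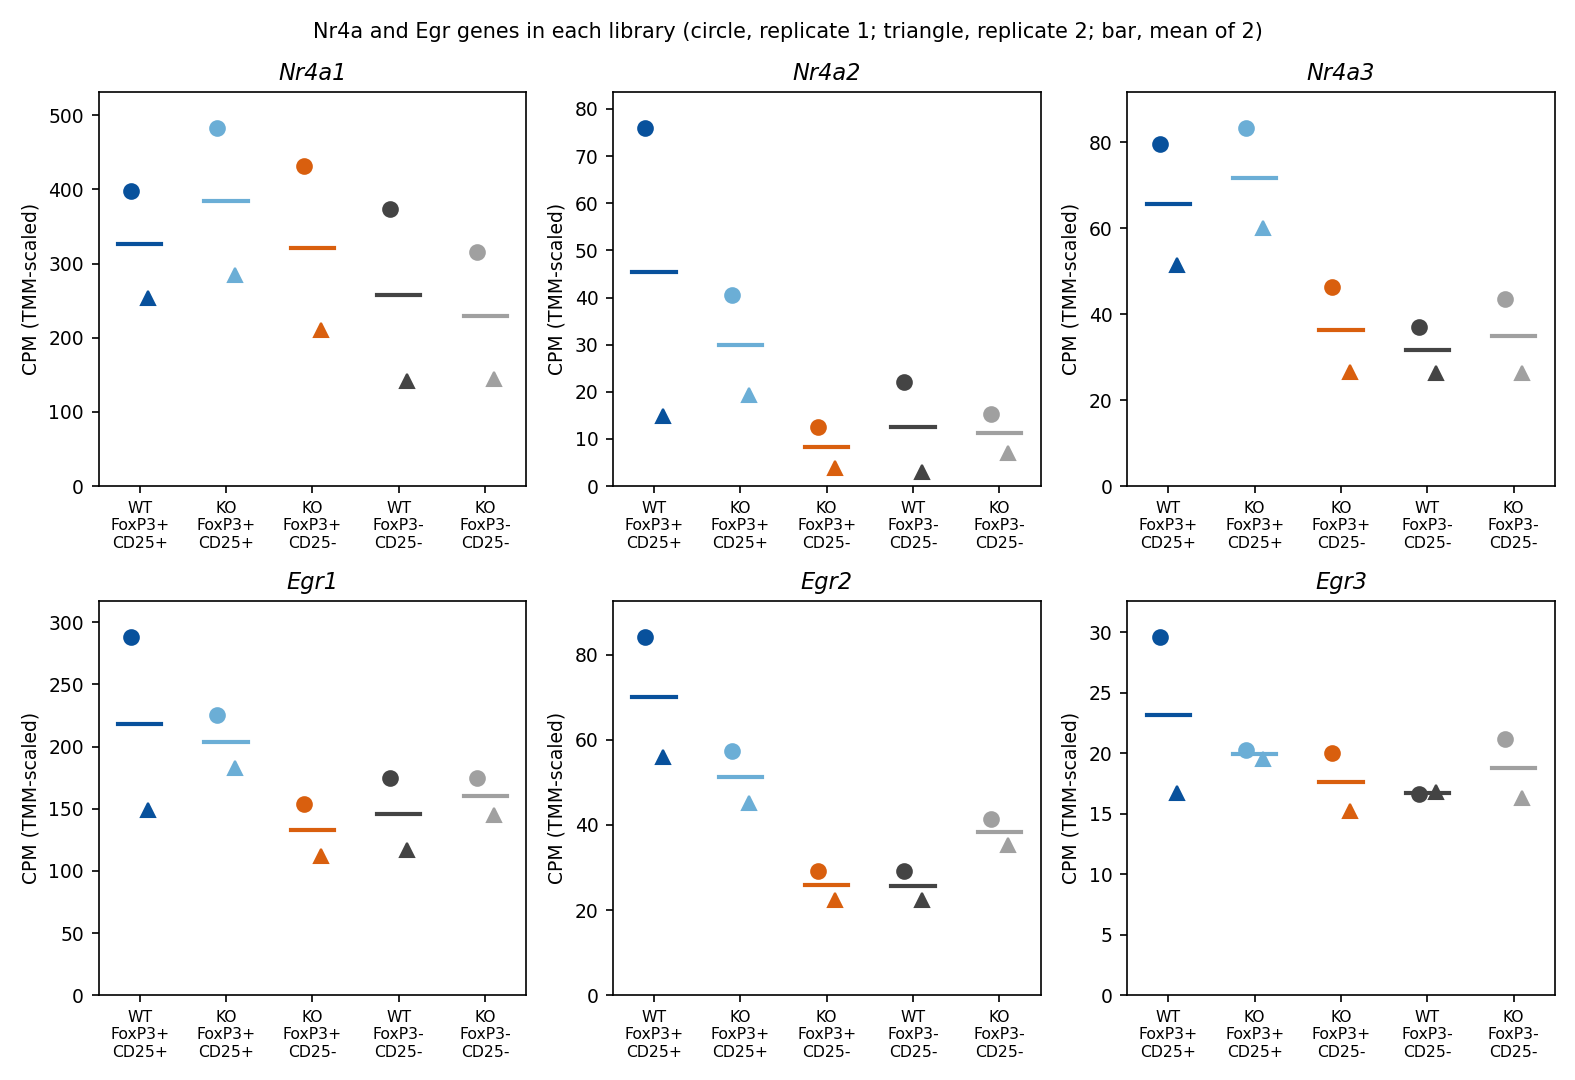
CPM (y axis, from 0, TMM-scaled) of each member in each library, by group (x axis). Circles are replicate 1, triangles are replicate 2 and bars are the mean of 2 libraries. *Egr2* lies at 55.9 and 84.1 CPM in WT FoxP3+CD25+ cells, above all other groups' libraries except 1 KO FoxP3+CD25+ library at 57.4 CPM, and circles lie above triangles in nearly all groups.

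To find out which members mark Tregs, WT FoxP3+CD25+ cells were compared with WT FoxP3-CD25- cells. *Egr2* was higher in Tregs, and it was the only member of 6 that passed FDR 0.05 in edgeR's quasi-likelihood test with all 10 libraries in 1 model. Of all genes tested, 10.9% passed in this comparison, with 7.15% higher and 3.75% lower in Tregs. *Egr2*, at chr10:67535475-67542188 (GRCm38, plus strand), encodes a factor tied to anergy and to restraint of T-cell activation. Its level was 84.1 and 55.9 CPM in the WT Treg libraries and 29.2 and 22.3 CPM in the WT non-Treg libraries. The groups did not overlap, and the higher Treg library came from the same mouse as the higher non-Treg library. The log2 fold change was 1.44 (SE 0.22, 2.71-fold, edgeR FDR 0.00164), and it was 1.33 (FDR 0.0186) without WT mouse 1. These p-values measure the spread between these libraries only.

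*Nr4a3* was the next in strength of evidence, without passing the threshold. This receptor (chr4:48045153-48086447, plus strand) acts redundantly with *Nr4a1* and *Nr4a2* in Treg development. Its level was 79.6 and 51.4 CPM in WT Tregs and 37.1 and 26.4 CPM in WT non-Tregs. The libraries of the populations did not overlap, with a log2 fold change of 1.04 (SE 0.32, edgeR FDR 0.0659). Libraries that do not overlap were common here: 47% of all genes tested separated these groups, and among the members *Egr2* and *Nr4a3* did.

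*Nr4a2* (chr2:57106830-57124003, minus strand), best known for its role in dopamine neurons, showed the largest fold and the widest spread. It had 76.0 and 14.8 CPM in WT Tregs and 22.1 and 2.89 CPM in WT non-Tregs, so that the lower Treg library was below the higher non-Treg library. The log2 fold change was 1.81 (SE 0.83, edgeR FDR 0.238). Within each mouse the Treg library was the higher, by 3.41-fold in mouse 1 and 4.79-fold in mouse 2. Between the mice it differed by 5.15-fold in Tregs and 7.65-fold in non-Tregs, more than between the populations of either mouse.

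*Nr4a1* (chr15:101254269-101274795, plus strand), the receptor most used as a reporter of antigen signalling, overlapped between the WT populations. It had 398 and 254 CPM in Tregs and 373 and 142 CPM in non-Tregs (log2 fold change 0.34, SE 0.50, edgeR FDR 0.773). *Egr1*, on chromosome 18 at 34859823 to 34864984 (plus strand), had 288 and 149 CPM in Tregs against 175 and 117 CPM in non-Tregs (log2 fold change 0.58, SE 0.29, edgeR FDR 0.28). *Egr3* (chr14:70077203-70082614, plus strand), which shares functions with *Egr2* in T cells, had 29.6 and 16.7 CPM against 16.6 and 16.8 CPM (log2 fold change 0.46, SE 0.25, edgeR FDR 0.335). For *Egr3*, 1 Treg library was above both non-Treg libraries and the other lay between them.

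When the mouse was added to the model as a block, 4 of the 6 genes were called higher in WT Tregs, against 19.1% of all genes called in either direction in that model. These were *Egr2* (log2 fold change 1.43, edgeR FDR 4.02e-06), *Nr4a2* (1.93, FDR 1.64e-05), *Nr4a3* (1.03, FDR 5.93e-05) and *Egr1* (0.53, FDR 0.00254). *Nr4a1* (0.46, FDR 0.0515) and *Egr3* (0.44, FDR 0.146) did not pass. Leaving out the second WT Treg library left only that of mouse 1, the higher of the 2 for all 6 members. Calls in that setting thus rest on 1 Treg library. Without WT mouse 1 and without the block, the log2 fold changes were 2.35 for *Nr4a2*, 0.96 for *Nr4a3*, 0.84 for *Nr4a1*, 0.35 for *Egr1* and -0.01 for *Egr3*, none past the threshold in edgeR (FDR 0.256 to 0.992). The block needs both WT mice.

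The same 2 populations were then compared in KO mice, where *Nr4a3* and not *Egr2* had the lowest p-value of the 6. No member passed in edgeR (6.34% of all genes did), and DESeq2 called 1, *Nr4a3*. The 6.34% is the share in edgeR, and the share of all genes in DESeq2 is not given here. An unadjusted p under 0.05 was seen for 1 of 6, beside 2205 of the 13796 genes tested. *Egr2* had 57.4 and 45.2 CPM in KO FoxP3+CD25+ cells and 41.4 and 35.4 CPM in KO FoxP3-CD25- cells. These ranges did not overlap and were close to each other, with a log2 fold change of 0.42 (SE 0.22, edgeR FDR 0.431). *Nr4a3* had 83.3 and 60.0 CPM against 43.5 and 26.2 CPM, a log2 fold change of 1.05 (SE 0.33, edgeR FDR 0.102), close to its value in WT cells. *Nr4a2* had 40.6 and 19.3 CPM against 15.4 and 7.11 CPM (log2 fold change 1.43, SE 0.92, edgeR FDR 0.546). For both genes the 2 FoxP3+CD25+ libraries were above the 2 FoxP3-CD25- libraries. *Nr4a1*, the gene of highest level, had 483 and 285 CPM against 315 and 145 CPM, with overlap (log2 fold change 0.74, SE 0.50, edgeR FDR 0.573). *Egr1* had 225 and 183 CPM against 175 and 145 CPM (log2 fold change 0.35, SE 0.29, edgeR FDR 0.667). *Egr3* overlapped, with 20.3 and 19.5 CPM against 21.2 and 16.3 CPM (log2 fold change 0.09, SE 0.27, edgeR FDR 0.936). Libraries of these populations separated for *Nr4a2*, *Nr4a3*, *Egr1* and *Egr2*, as they did for 46.5% of all genes.

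With the mouse as a block, 5 of 6 members were called higher in KO FoxP3+CD25+ cells, against 12% of all genes called in that model. *Nr4a3* rose by 1.06 on the log2 scale (edgeR FDR 0.000119), *Nr4a2* by 1.42 (FDR 0.000469), *Nr4a1* by 0.80 (FDR 0.00415), *Egr2* by 0.41 (FDR 0.0305) and *Egr1* by 0.35 (FDR 0.0422). *Egr3* did not pass (0.10, FDR 0.839). Over the 4 mice of both genotypes, FoxP3+CD25+ cells had more of *Nr4a1*, *Nr4a2*, *Nr4a3*, *Egr1* and *Egr2* than FoxP3-CD25- cells in 4 of 4 mice, and more *Egr3* in 2 of 4. By comparison, 18.3% of all genes were higher in 4 of 4 mice.

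**Figure D2:**
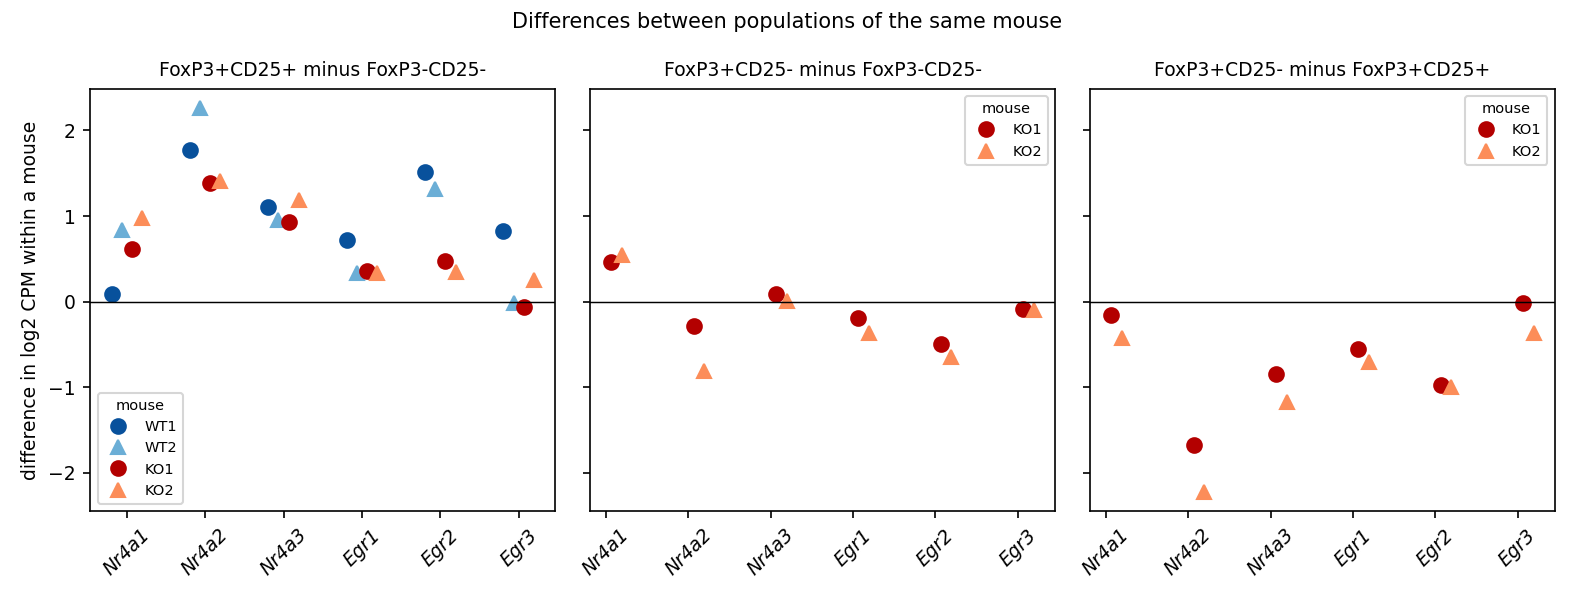
Difference in log2 CPM (y axis) between populations sorted from the same mouse, for each member (x axis), with 1 point per mouse. In the left panel *Nr4a2* lies between 1.39 and 2.26 and *Nr4a3* between 0.93 and 1.19 in all 4 mice, whereas *Egr2* lies at 1.52 and 1.32 in WT mice and at 0.47 and 0.35 in KO mice. In the right panel all 12 points are below 0.

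Whether the Treg difference itself depended on genotype was tested as an interaction, in which *Egr2* had the lowest p-value of the members. The KO effect in FoxP3+CD25+ cells minus that in FoxP3-CD25- cells was -1.02 on the log2 scale for *Egr2* (SE 0.31, 95% CI -1.71 to -0.32). This ranked at place 153 of all genes in edgeR's quasi-likelihood test of the interaction and did not pass (FDR 0.722). No gene passed in that test (0%), while 685 genes had an unadjusted p under 0.05, DESeq2 called 23 and the likelihood ratio test 32, none of them a member. With the mouse as a block the same difference was -1.02 (SE 0.15, edgeR FDR 0.0102), and *Egr2* was the only member among 1.07% of genes called. For the other members the difference of the KO effects was between -0.38 (*Nr4a2*) and 0.41 (*Nr4a1*), with FDR 1 for each in edgeR.

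The KO differences of *Egr2* had opposite signs in the 2 populations. Among FoxP3+CD25+ cells it was 1.37-fold lower in KO (log2 fold change -0.45, SE 0.22, 95% CI -0.93 to 0.03, edgeR FDR 1), and the lower WT library (55.9 CPM) was below the higher KO library (57.4 CPM). Among FoxP3-CD25- cells it was 1.48-fold higher in KO (log2 fold change 0.57, SE 0.23, 95% CI 0.07 to 1.07, edgeR FDR 0.539), with 41.4 and 35.4 CPM in KO above 29.2 and 22.3 CPM in WT. Libraries of these FoxP3-CD25- groups separated for 38.3% of all genes. Neither KO difference of *Egr2* passed. Without WT mouse 1, the log2 fold change of *Egr2* was -0.13 (edgeR FDR 1) among FoxP3+CD25+ and 0.78 (edgeR FDR 0.291) among FoxP3-CD25- cells, and the interaction was -0.91 (edgeR FDR 0.979).

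No member differed between genotypes past the threshold in either population, where 0.00725% of genes (1 gene) passed among FoxP3+CD25+ cells and 0.145% among FoxP3-CD25- cells. At an unadjusted p under 0.05, 0 members were found among FoxP3+CD25+ cells and 1, *Egr2*, among FoxP3-CD25- cells. Over all 13796 genes tested these counts were 592 and 1106. DESeq2 and the likelihood ratio test called 0 members in both. For *Nr4a3* in FoxP3+CD25+ cells the log2 difference was 0.13 (95% CI -0.56 to 0.82), and for *Egr1* it was -0.10 (95% CI -0.73 to 0.53). For *Nr4a1* it was 0.24 (95% CI -0.86 to 1.33), for *Nr4a2* -0.60 (95% CI -2.38 to 1.17) and for *Egr3* -0.21 (95% CI -0.78 to 0.36). For *Nr4a1*, *Nr4a2*, *Egr1* and *Egr3* these intervals reach, in at least 1 direction, the size of the difference between the WT populations, and for *Nr4a3* they do not (1.04). In FoxP3-CD25- cells the log2 differences of these 5 genes were between -0.23 (*Nr4a2*, 95% CI -2.31 to 1.86) and 0.16 (*Egr3*, 95% CI -0.42 to 0.73).

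KO FoxP3+CD25- cells express the *Foxp3* reporter without CD25, and the question was whether they carry the Nr4a and Egr levels of Tregs or of non-Tregs. *Egr2* was at 29.1 and 22.5 CPM in these cells, below both other KO populations and in the range of WT non-Tregs (29.2 and 22.3 CPM). Compared with KO FoxP3+CD25+ cells, *Egr2* fell by 1 on the log2 scale (SE 0.23, 2-fold, edgeR FDR 0.024), the only one of 6 members called, against 7.01% of all genes. This call was lost without KO FoxP3+CD25+ replicate 1 (log2 fold change -0.82, edgeR FDR 0.172) or KO FoxP3+CD25- replicate 2 (-0.81, edgeR FDR 0.19). Compared with WT Tregs, *Egr2* fell by 1.45 (SE 0.23, edgeR FDR 0.00194), again the only member called, against 11.2% of all genes. The other members ranged from -2.53 (*Nr4a2*, edgeR FDR 0.119) to -0.02 (*Nr4a1*). An unadjusted p under 0.05 was seen for 4 of the 6, beside 3257 of the 13796 genes tested. Both comparisons share the KO FoxP3+CD25- libraries, and the latter shares the WT Treg libraries with the first comparison above.

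*Nr4a3* had 46.2 and 26.5 CPM in KO FoxP3+CD25- cells, below both KO FoxP3+CD25+ libraries (83.3 and 60.0 CPM), with a log2 fold change of -0.99 (SE 0.32, edgeR FDR 0.107). *Nr4a2* had 12.6 and 3.94 CPM against 40.6 and 19.3 CPM, which did not overlap either (-1.93, SE 0.95, edgeR FDR 0.315). *Egr1* had 154 and 112 CPM against 225 and 183 CPM (-0.62, SE 0.29, edgeR FDR 0.283). Libraries of these groups thus separated for 4 members, as for 49.3% of all genes. *Nr4a1* overlapped, with 431 and 211 CPM in KO FoxP3+CD25- cells and 483 and 285 CPM in KO FoxP3+CD25+ cells (-0.26, SE 0.50, edgeR FDR 0.855). *Egr3* had 20.0 and 15.2 CPM against 20.3 and 19.5 CPM (-0.19, SE 0.26, edgeR FDR 0.792). With the mouse as a block, 4 members were called lower, against 15.1% of all genes: *Nr4a2* (-1.92, edgeR FDR 6.13e-05), *Nr4a3* (-1.01, FDR 0.000127), *Egr2* (-0.99, FDR 0.000137) and *Egr1* (-0.63, FDR 0.00141).

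Set against KO FoxP3-CD25- cells, sorted from the same mice, no member of KO FoxP3+CD25- cells passed in edgeR (1.67% of all genes did). *Egr2* was the only member with an unadjusted p under 0.05, beside 1379 of the 13796 genes tested. DESeq2 and the likelihood ratio test called 0 members. *Egr2* was nonetheless below both KO FoxP3-CD25- libraries, at 29.1 and 22.5 CPM against 41.4 and 35.4 CPM (log2 fold change -0.58, SE 0.23, edgeR FDR 0.389). Such separation was seen in 39.3% of all genes and in no other member. With the mouse as a block, *Egr2* passed (-0.58, edgeR FDR 0.0125), against 5.7% of all genes. *Nr4a1* had the opposite sign, 431 and 211 CPM against 315 and 145 CPM (0.48, SE 0.50, edgeR FDR 0.891), higher by 1.37-fold in mouse 1 and 1.46-fold in mouse 2, and it did not pass with the block (0.50, FDR 0.0863). *Nr4a2* (-0.50), *Egr1* (-0.27), *Egr3* (-0.10) and *Nr4a3* (0.05) had FDR of 0.903 or more in edgeR.

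Against WT FoxP3-CD25- cells, which are cells of other mice, no member passed (0.768% of all genes did). DESeq2 and the likelihood ratio test called 0 members. An unadjusted p under 0.05 was seen for 0 members, beside 1214 of the 13796 genes tested. *Egr2* differed by -0.01 on the log2 scale (SE 0.23, 95% CI -0.52 to 0.50). The group means of *Egr2* thus ordered as WT FoxP3+CD25+ (70.0 ± 19.9 CPM, SD, n = 2), KO FoxP3+CD25+ (51.3 ± 8.60), KO FoxP3-CD25- (38.4 ± 4.18), KO FoxP3+CD25- (25.8 ± 4.64) and WT FoxP3-CD25- (25.7 ± 4.85). No 2 neighbours in this order differed past the threshold without a block. *Nr4a1* was ordered differently: KO FoxP3+CD25+ (384 ± 139 CPM), WT FoxP3+CD25+ (326 ± 102), KO FoxP3+CD25- (321 ± 156), WT FoxP3-CD25- (257 ± 163) and KO FoxP3-CD25- (230 ± 120), where all groups overlapped.

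A second pattern ran across all populations: replicate 1 exceeded replicate 2. *Nr4a1*, *Nr4a2*, *Nr4a3*, *Egr1* and *Egr2* were higher in replicate 1 in 5 of 5 groups and *Egr3* in 4 of 5, whereas 10% of all genes were higher and 8.48% lower in 5 of 5. The ratio was 1.57 to 2.63 for *Nr4a1*, 2.11 to 7.65 for *Nr4a2* and 1.39 to 1.75 for *Nr4a3*. It was 1.21 to 1.93 for *Egr1* and 1.17 to 1.5 for *Egr2*. These groups are not independent, since they come from 1 mouse of each genotype per number, and WT and KO mice share only the number. The median over all genes was between -0.012 and 0.011 on the log2 scale in these groups. A difference of at least 0.4 in all 5 groups was seen for 58 genes (0.42%), *Nr4a1*, *Nr4a2* and *Nr4a3* among them.

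**Figure D3:**
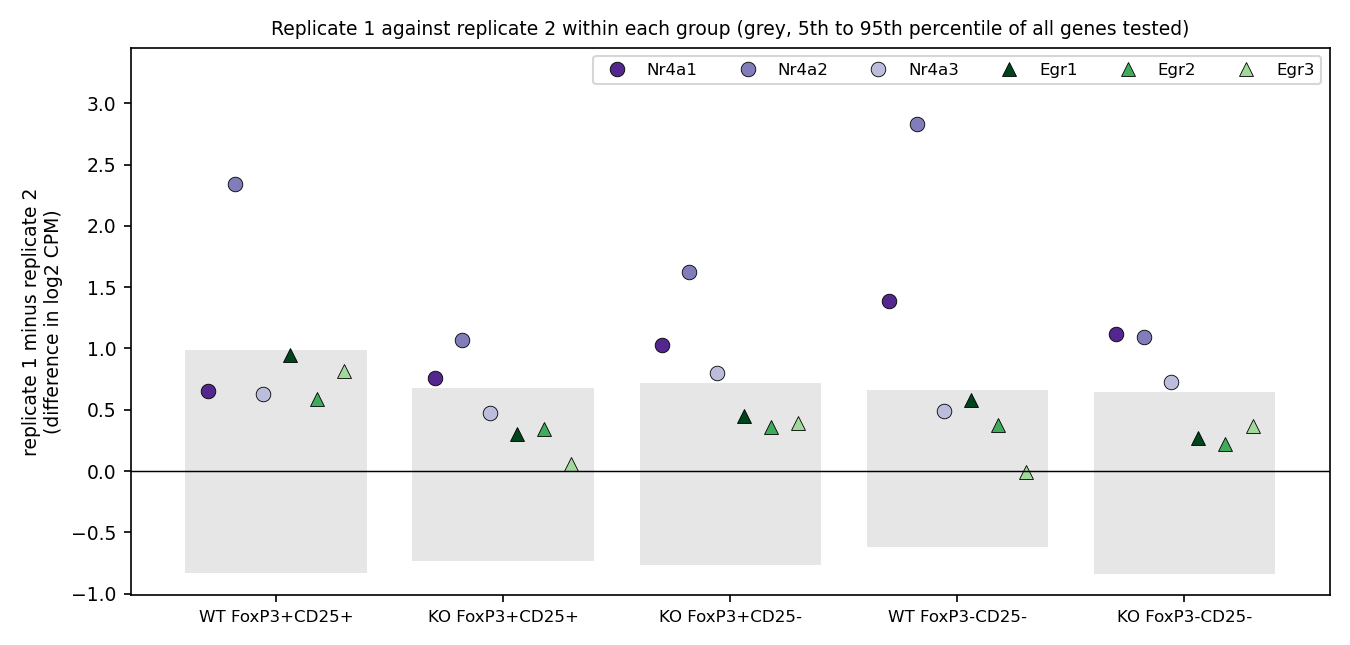
Replicate 1 minus replicate 2 in log2 CPM (y axis) for each member in each of the 5 groups (x axis), with grey bars from the 5th to the 95th percentile of all 13796 genes tested. *Nr4a2* lies above the grey bar in 5 of 5 groups (1.07 to 2.83), *Nr4a1* in 4 of 5 and *Nr4a3* in 2 of 5, and the Egr genes lie within it.

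Genes of heat shock and stress, which respond to tissue handling as immediate early genes do, were set beside the members, since the labels do not record how long cells were handled. The summed level of 13 such genes was 4210 to 4940 CPM in the 3 libraries of KO mouse 1 and 2180 to 2560 CPM in those of KO mouse 2, and 3360 to 3680 CPM in the 4 WT libraries. *Hsp90ab1* made up much of the sum (1840 to 2230 CPM in the WT libraries), and single genes such as *Dnajb1* (119 to 220 CPM in the same libraries) had a wider relative spread. The part of handling in the members' levels was not tested. Of these stress genes, 12 were tested. In WT Tregs against WT non-Tregs 1 (*Gadd45g*) was called higher, beside 7.15% of all genes. The same gene was the 1 called higher in KO FoxP3+CD25+ than in KO FoxP3-CD25- cells, beside 3.52% of all genes.

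The other genes of the pathway were described by counts in lists, with no test of a list. Co-regulators and relatives of the members (*Nab1*, *Nab2*, *Rxra* and others, 7 tested) had 0 called in the WT Treg comparison. Their median log2 fold change was -0.04 beside -0.02 over all genes and 0.81 over the 6 members. An unadjusted p under 0.05 was seen for 2 of the 7, beside 3024 of the 13796 genes tested. *Nab2*, itself an Egr target, had 103 ± 18.1 CPM in WT Tregs and 97.5 ± 15.7 in WT non-Tregs (SD, n = 2). Upstream regulators such as *Srf*, *Elk4*, *Mef2d* and *Nfatc1* (17 tested) also had 0 called, with a median of 0.03. Of these 17, 5 were at an unadjusted p under 0.05, beside the same 3024 of all genes. With the mouse as a block, 2 of the 7 and 4 of the 17 passed, beside 19.1% of all genes in that model.

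Of 48 early response genes of the T-cell receptor, 19 were called higher and 3 lower in WT Tregs, with a median of 0.44, beside 7.15% and 3.75% of all genes. Without WT mouse 1 these counts were 16 and 1, beside 3.37% and 1.69%. Those of lowest p-value were *Tnfrsf9* (4-1BB, log2 fold change 3.74, SE 0.16, edgeR FDR 4.35e-07), *Tnfrsf4* (OX40, 3.11), *Tnfrsf18* (GITR, 1.86) and *Fosb*, an AP-1 subunit (1.11). *Tnfrsf18* is also a Treg marker. Of the 48 genes, 38 had a positive log2 fold change. Mean CPM in WT Tregs and WT non-Tregs were 354 and 322 for *Cd69*, 1830 and 2010 for *Junb*, and 214 and 291 for *Ier2*. The 3 called lower were *Cd40lg*, the CD40 ligand (-2.10), *Dusp10*, a MAP kinase phosphatase (-0.98), and *Il2*. Among KO cells, 13 were higher and 3 lower in the CD25+ Tregs than in FoxP3-CD25- cells, beside 3.52% and 2.81% of all genes. With the mouse as a block these were 24 and 4, beside 895 and 754 of the 13796 genes tested. Relative to KO FoxP3-CD25- cells, KO FoxP3+CD25- cells had 4 genes of the list lower and 0 higher, beside 186 and 44 of all genes: *Spry1* (-2.51, SE 0.35, edgeR FDR 0.00511), *Dusp6* (-1.53, edgeR FDR 0.000342), *Cd200* (-1.03) and *Fosb* (-0.98). *Spry1* and *Dusp6* encode inhibitors of the MAP kinase pathway that are induced by it. Against KO FoxP3+CD25+ cells, 1 of the 48 was higher and 19 lower, beside 2.25% and 4.76% of all genes. With the block, 4 were higher and 8 lower than in KO FoxP3-CD25- cells, beside 255 and 531 of the 13796 genes tested.

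Of 18 genes reported downstream of *Egr2* and *Egr3*, 3 were higher and 2 lower in WT Tregs (median 0.09), beside 7.15% and 3.75% of all genes, and 3 and 0 without WT mouse 1. The 3 were *Tnfrsf9*, which is also in the early response list, *Socs1* (0.97, edgeR FDR 0.00161) and *Id3* (0.79). The 2 were *Fasl* (-1.29) and *Dgka*, a kinase that dampens diacylglycerol signalling (-0.50). With KO FoxP3+CD25- compared to KO FoxP3-CD25- cells, 0 of the 18 were higher and 3 lower, beside 0.319% and 1.35% of all genes: *Lag3*, an inhibitory receptor (log2 fold change -3.12, edgeR FDR 0.0325), *Rnf128*, the ubiquitin ligase GRAIL (-3.08, SE 0.54, FDR 0.0178), and *Sema7a* (-2.98, SE 0.48, FDR 0.0109). *Rnf128* and *Sema7a* were at 6.09 ± 1.83 and 4.24 ± 0.150 CPM in KO FoxP3-CD25- cells and at 0.732 ± 0.107 and 0.568 ± 0.339 CPM in KO FoxP3+CD25- cells, near the floor. WT FoxP3-CD25- cells had 31.1 ± 12.4 CPM of *Lag3*, 3.13 ± 0.095 of *Rnf128* and 2.56 ± 0.123 of *Sema7a*. KO FoxP3+CD25- cells were below these levels without passing the threshold (log2 fold changes -2.51, -2.10 and -2.26, edgeR FDR 0.132, 0.185 and 0.0811). The NK-cell marker sum, given above, was also higher in FoxP3-CD25- cells, and its part in these differences was not tested. With the block, 2 of the 18 were higher and 6 lower in KO FoxP3+CD25- than in KO FoxP3-CD25- cells, beside 255 and 531 of the 13796 genes tested.

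Of 15 genes reported downstream of Nr4a factors, 10 were higher and 0 lower in WT Tregs (median 1.21), beside 7.15% and 3.75% of all genes, and 7 and 0 without WT mouse 1. These included *Foxp3* and *Il2ra*, whose products were the sort markers, and 5 of the 15 are Treg markers in their own right. Without those 5, 5 of 10 were higher: *Pdcd1*, which encodes PD-1 (1.23), *Tox2* (1.21), *Gata3* (0.88), *Cd274* (0.85) and *Tox* (0.81). For KO FoxP3+CD25+ against KO FoxP3-CD25- cells, 7 of 15 were higher, or 2 of 10 without the markers, beside 3.52% of all genes. With KO FoxP3+CD25- set against KO FoxP3-CD25- cells, 2 were higher, *Foxp3* (3.55) and *Ikzf4* (1.44), and 2 lower, *Tox2* (-2.90) and *Pdcd1* (-1.68, SE 0.19, edgeR FDR 0.00187), beside 0.319% and 1.35% of all genes. Against WT FoxP3-CD25- cells, 3 of the 15 were higher and 0 lower, beside 0.355% and 0.413% of all genes. *Tox2* and *Pdcd1* did not pass there (log2 fold changes -1.54 and -0.70, edgeR FDR 0.16 and 0.185). Compared with KO FoxP3+CD25+ cells, KO FoxP3+CD25- cells had 10 of 15 lower and 0 higher, and 5 of 10 lower without the markers, beside 4.76% of all genes lower.

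Genes of naive and quiescent T cells keep cells in the circulating, unstimulated state. Of 11, 5 were lower and 0 higher in WT Tregs (median -0.60), beside 3.75% of all genes lower, with the same counts without WT mouse 1, led by *Lef1* (-1.65), *Tcf7* (-1.20), *Il7r* (-1.53) and *S1pr1* (-0.89). KO FoxP3+CD25- cells exceeded KO FoxP3+CD25+ cells in 5 of these genes, with 0 lower, beside 2.25% of all genes higher. From KO FoxP3-CD25- cells 0 differed past the threshold. An unadjusted p under 0.05 was seen there for 2 of the 11, beside 1379 of the 13796 genes tested. With the block, 2 of the 11 differed from KO FoxP3-CD25- cells past the threshold, beside 5.7% of all genes.

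**Figure D4:**
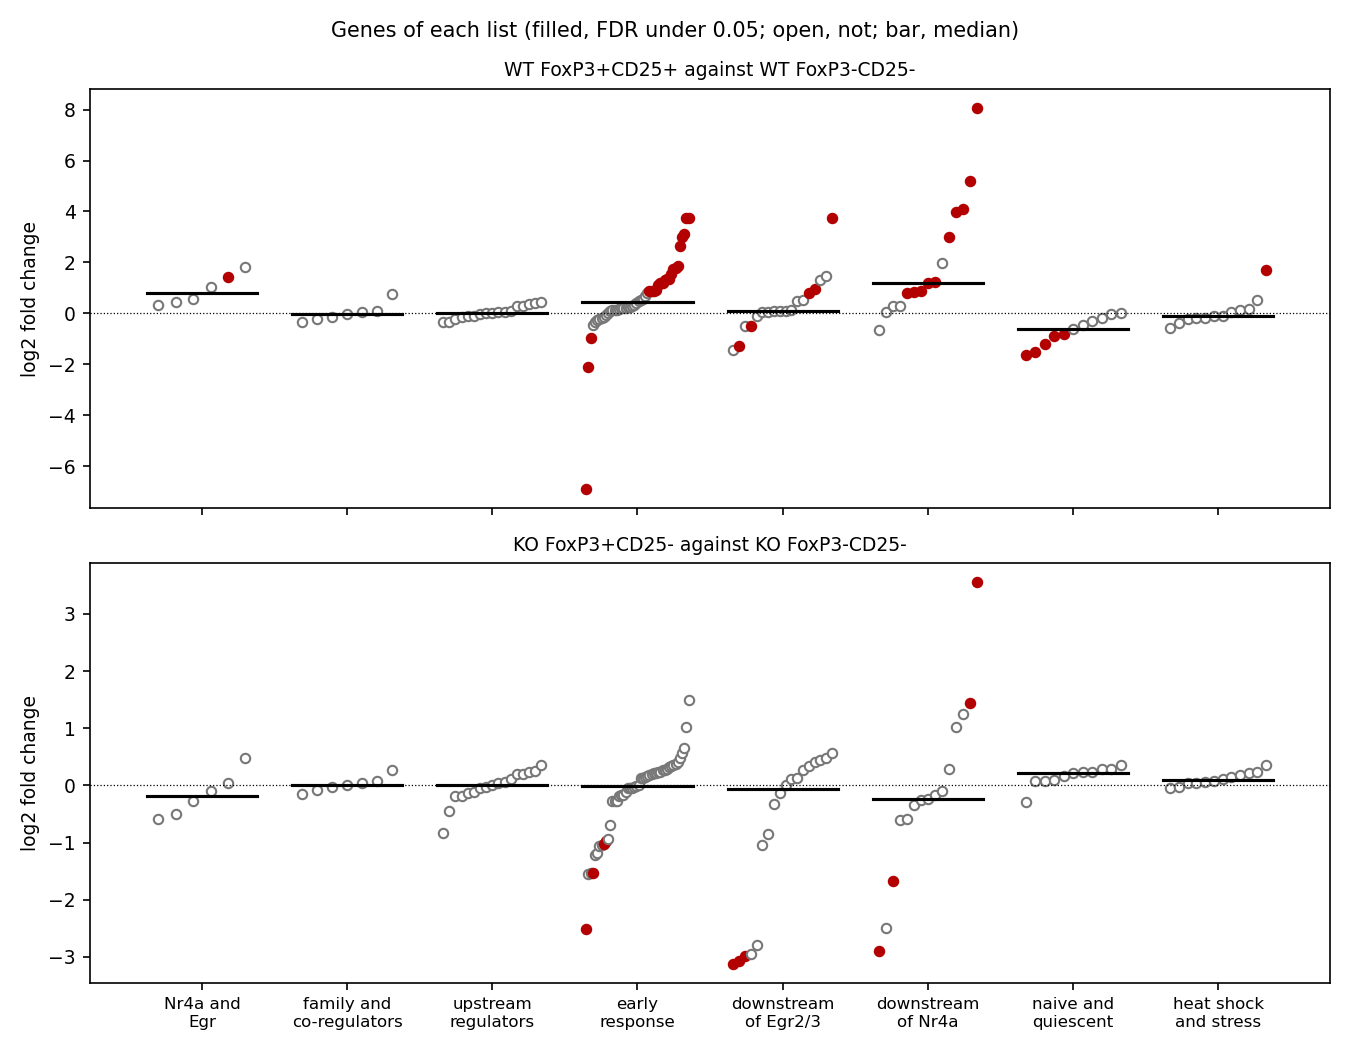
Log2 fold change (y axis) of each tested gene of each list (x axis) in WT FoxP3+CD25+ against WT FoxP3-CD25- cells (upper panel) and in KO FoxP3+CD25- against KO FoxP3-CD25- cells (lower panel). Filled points passed FDR 0.05, open points did not, and bars are medians. In the upper panel 19 early response genes and 10 genes downstream of Nr4a are filled above 0, and in the lower panel 4 early response genes are filled below 0.

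Across the 10 libraries, members resembled each other to different degrees. Pearson correlations of log2 CPM ranged from 0.50 (*Nr4a1* with *Egr2*) to 0.97 (*Nr4a2* with *Egr1*), with 0.90 for *Nr4a2* with *Nr4a3* and 0.74 for *Egr2* with *Egr3*. These are descriptions over 10 libraries from 4 mice that share animals, populations and sequencing depth. Genes whose pattern was most like *Egr2* were *Sh3bp2*, an adaptor of receptor signalling (0.988), *Ptprs*, a receptor phosphatase (0.982), and *Pmaip1*, which encodes NOXA (0.981). Those most like *Nr4a1* were *Csrnp1* (0.949), *Nfkbid* (0.945) and *Inpp5d*, which encodes SHIP (0.940). *Nr4a3* was most like *Foxp4* (0.977), *Adarb1* (0.974) and *Mbnl1* (0.966). *Nr4a2* was most like *Zfp62* (0.975), *Gm44170* (0.972) and *Egr1* (0.971), *Egr1* most like *Gm44170* (0.980), *Nr4a2* and *Gm37039* (both 0.971), and *Egr3* most like *Zfp106* (0.945), *Eif4g3* (0.935) and *Trp53bp1* (0.925). The genes named depend on the measure: by Spearman correlation those most like *Egr2* were *Dusp4*, *Ebi3* and *Myo1e* (0.988 each) and those most like *Egr3* were *Csnk1d* (0.976), *Gm15893* (0.964) and *Socs7* (0.964), with none of the genes above.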

How the data were processed

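RNA was measured by sequencing of 10 libraries of sorted spleen CD4+ T cells. The authors aligned reads to mm10 (GRCm38) with HISAT2 (version 2.1.0) and deposited raw counts, the whole number of reads HTSeq assigned to each gene symbol, not normalized. HTSeq is version 0.11.1 in the submitters' processing notes. Its strand setting and annotation are not given in the sources used here. HTSeq's tallies of unassigned reads were left out; 26 to 28.5% of reads were on genes.

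Counts were fitted in edgeR (version 4.0.16, R 4.3.3) with limma (version 3.58.1): filterByExpr (minimum count 10), TMM factors, a mean per group, the bias-adjusted quasi-likelihood fit and two-sided F-tests, Benjamini-Hochberg adjusted over 13796 genes, FDR 0.05, 5 residual degrees of freedom. SE is the absolute log2 fold change over the square root of F. CPM use TMM factors; log2 CPM use a prior count of 2. Steps were tested on simulated data. Positions are from GENCODE M21. Libraries of the same mouse deviated together (correlations 0.303 in WT, 0.421 to 0.445 in KO), so mouse-blocked values are given within genotypes. The mouse block adds a term for each genotype, so that fit has fewer residual degrees of freedom than the 5 given above.

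Members and gene lists were chosen with earlier results of these data known. Named genes were the members, list genes of lowest p-value with separated libraries (4 in the WT Treg comparison, 2 in KO FoxP3+CD25- against KO FoxP3-CD25- cells), genes of a count of 5 or fewer, and the 3 genes most correlated with each member. *Nab2*, Eomes, *Hsp90ab1*, *Dnajb1*, *Cd69*, *Junb*, *Ier2*, the single B-cell markers and the genes named by Spearman correlation were named outside this rule, after their values were seen. Alternatives were DESeq2 (version 1.42.0), edgeR's likelihood ratio test, RLE factors, other filters, the compared libraries alone, blocks, and each library left out. Python (version 3.11.15) and matplotlib (version 3.10.9) were used for sequences and figures.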

Additional observations from a re-analysis of the deposited data

How the results depend on the processing

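With 2 libraries per group, differences of *Nr4a1*, *Nr4a2* and *Egr1* smaller than the spread between mice did not pass in the edgeR fit of all 10 libraries without a block, and leaving out 1 library leaves a lone sample that is assumed to vary like the other groups. *Egr2* in WT Tregs passed under 19 of 19 alternatives (log2 fold change 1.12 to 1.72), and against KO FoxP3+CD25- cells under 18 of 18 (-1.72 to -1.13). Members called in WT FoxP3+CD25+ against WT FoxP3-CD25- cells numbered 2 (*Nr4a3* and *Egr2*) without a filter, with DESeq2, with the likelihood ratio test and with the compared libraries alone, 4 with the replicate block and with the mouse block, and 1 to 5 leaving out 1 library. The 5 came without WT FoxP3+CD25+ replicate 2, and 2 without either KO FoxP3+CD25- library or KO FoxP3-CD25- replicate 1. Called in KO FoxP3+CD25+ against KO FoxP3-CD25- cells were 1 (*Nr4a3*) under the first 4 of these settings, 3 with the replicate block and 5 with the mouse block. For KO FoxP3+CD25- against KO FoxP3-CD25- cells it was 1 (*Egr2*) with either block. Against KO FoxP3+CD25+ cells, KO FoxP3+CD25- cells had 2 without a filter, with DESeq2 and with the likelihood ratio test, 4 with either block, and 0 to 1 leaving out 1 library. Against WT FoxP3+CD25+ cells they had 3 without a filter, 2 with DESeq2, 4 with the replicate block and 1 to 4 leaving out 1 library, the 4 without WT FoxP3+CD25+ replicate 2. For the difference of KO effects the count was 1 with the mouse block, beside 1.07% of all genes. Shares of all genes are not given for each setting above, and ranges over the alternatives stand in the last paragraph. The replicate block across genotypes pairs mice that share only a number (correlations -0.011 to 0.114), and the cause of these changes was not tested.

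*Egr2* in KO FoxP3+CD25- against WT FoxP3-CD25- cells was 0 with DESeq2 and with the compared libraries alone and 0.01 with the replicate block, and -0.18 to 0.20 leaving out 1 library or WT mouse 1. *Nr4a2* in KO FoxP3-CD25- against WT FoxP3-CD25- cells was 0 with the replicate block. Signs of further values that were not called changed when 1 library or WT mouse 1 was left out. For WT FoxP3+CD25+ against WT FoxP3-CD25- cells the log2 fold changes were -0.01 to 0.84 for *Egr3* and -0.20 to 1.19 for *Nr4a1*. For KO FoxP3+CD25+ against KO FoxP3-CD25- cells the log2 fold changes were -0.09 to 0.28 for *Egr3*. For KO FoxP3+CD25- against KO FoxP3-CD25- cells the log2 fold changes were -0.12 to 1.15 for *Nr4a1*, -0.39 to 0.45 for *Nr4a3*, -1.48 to 0.20 for *Nr4a2* and -0.30 to 0.11 for *Egr3*. For KO FoxP3+CD25- against KO FoxP3+CD25+ cells the log2 fold changes were -0.86 to 0.17 for *Nr4a1* and -0.39 to 0.01 for *Egr3*. For KO FoxP3+CD25+ against WT FoxP3+CD25+ cells the log2 fold changes were -1.36 to 1 for *Nr4a2*, -0.50 to 0.46 for *Egr1*, -0.58 to 0.26 for *Egr3*, -0.19 to 0.60 for *Nr4a1* and -0.16 to 0.48 for *Nr4a3*. For KO FoxP3-CD25- against WT FoxP3-CD25- cells the log2 fold changes were -0.82 to 0.69 for *Nr4a1*, -0.99 to 1.92 for *Nr4a2*, -0.27 to 0.45 for *Nr4a3*, -0.12 to 0.45 for *Egr1* and -0.03 to 0.34 for *Egr3*.

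Counts in lists under the mouse block, an alternative added after seeing the data, differed from those without it. Without WT mouse 1, also added after seeing the data, 3 downstream-of-Egr genes were called in WT Tregs. With the mouse block, in WT Tregs 2 family, 4 upstream, 8 downstream-of-Egr and 2 stress genes were called, beside 19.1% of all genes. For KO FoxP3+CD25+ against KO FoxP3-CD25- cells the counts were 1 family, 2 upstream (0 with RLE factors, 1 without the block), 28 early response, 7 downstream-of-Egr and 3 stress genes. For KO FoxP3+CD25- against KO FoxP3-CD25- cells they were 3 upstream, 12 early response, 8 downstream-of-Egr and 2 quiescence genes. Against KO FoxP3+CD25+ cells they were 3 family, 4 upstream and 3 stress genes. In these last 3 comparisons 12%, 5.7% and 15.1% of all genes were called with the block. Over all genes, counts of called genes and their ranges over alternatives were 1504 (715 to 2634) in WT FoxP3+CD25+ against WT FoxP3-CD25-, 874 (396 to 1649) in KO FoxP3+CD25+ against KO FoxP3-CD25-, 230 (30 to 786) in KO FoxP3+CD25- against KO FoxP3-CD25-, 967 (410 to 2090) in KO FoxP3+CD25- against KO FoxP3+CD25+, 106 (25 to 306) in KO FoxP3+CD25- against WT FoxP3-CD25-, 1548 (790 to 2154) in KO FoxP3+CD25- against WT FoxP3+CD25+, 1 (0 to 11) in KO FoxP3+CD25+ against WT FoxP3+CD25+, 20 (0 to 143) in KO FoxP3-CD25- against WT FoxP3-CD25-, 0 (0 to 148) in the difference of the KO effect, FoxP3+CD25+ minus FoxP3-CD25-. Other list counts stayed within 1.5 times.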
